A study of Mus musculus with 16 samples.

Results

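Blood and endothelial progenitor genes were followed in P19CL6 cells, a mouse embryonal carcinoma subline that forms beating cardiac muscle when cultured with dimethyl sulfoxide (DMSO). The 10 genes were the transcription factors Etv2, Tal1, Lmo2, Runx1 and Fli1, the receptors Kdr, Flt1, Tek and Tie1, and the adhesion molecule Pecam1. They were chosen by name out of 18193 genes that have a probe set naming a single gene. Each was read from 1 probe set, that of the highest mean signal, out of 19 probe sets that the 10 genes have among 45101 in the table.

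RNA was measured on 16 Affymetrix arrays in 6 groups. Growth cultures (n = 3) received no DMSO and were passaged every 48 h. The other cultures were plated in medium with 1% DMSO, which was renewed every 48 h, and were collected on day 4 (n = 3), day 6 (n = 2), day 8 (n = 3), day 10 (n = 3) or day 12 (n = 2). All groups were of this 1 line, and the design text calls the samples of a group independent. No culture was kept as long without DMSO, so the effects of DMSO, of time in culture and of the end of passaging cannot be told apart. Each value is from a whole dish: fewer cells of a type and less RNA per cell cannot be told apart either.

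In the embryo, blood and endothelium arise together from mesoderm that carries Kdr, a receptor for vascular endothelial growth factor (VEGF). Etv2, an ETS-family factor, acts early and briefly in this step. Tal1 and Lmo2 then form a complex with GATA and E-box binding proteins, Fli1 and Runx1 act in the blood and vascular lineages, and Tek, Tie1 and Pecam1 mark endothelium as it matures. Heart muscle comes from neighbouring mesoderm, so the same cultures can carry both programmes.

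The array medians ran from 3.16 to 3.27 on the log2 scale, and 39.6 to 42.5% of probe sets on an array lay above 4, the value taken here as the lower limit of a clear signal. One day 8 culture, replicate A, resembled day 6. Correlations were taken over the 10802 genes above 4 on at least 2 arrays, with 1 probe set each. Replicate A correlated at 0.990 to 0.992 with the arrays of day 6 but at 0.956 to 0.967 with replicates B and C of day 8. Day 8 results are therefore given with it and, beside the main ones, without it. The growth arrays carried 4 of 6 markers of embryonal carcinoma, with mean levels of 14.30 for Pou5f1, 10.87 for Sox2, 12.18 for Utf1 and 7.90 for Nanog. Zfp42 stayed at or under 2.65, and Dppa5a averaged 3.85 in growth, with 1 of 3 arrays above 4. The 3 mesoderm markers with a named probe set here, Mixl1, Mesp1 and Eomes, averaged 11.0 to 12.3 on the day 4 arrays and 2.90 to 5.30 on all other arrays. Within this mean, Eomes was already at 7.64 to 7.95 on the growth arrays and averaged 6.53 on day 6. The 6 cardiac markers averaged 2.76 to 3.23 in growth and 12.5 to 12.6 on day 12.

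The start-site sequences of Etv2, Kdr, Flt1 and Tek are shown because these 4 genes had more called differences than the other 6. Each window is 250 bases before to 50 after the start, from RefSeq on GRCm38.p6, read 5′ to 3′ along the gene's strand. Etv2 lies at chr7:30635803-30636102 on the minus strand, Kdr at chr5:75978406-75978705 on the minus strand, Flt1 at chr5:147725962-147726261 on the minus strand and Tek at chr4:94739039-94739338 on the plus strand. Capitals mark the letters GGAAG (ETS letters, the core that ETS factors bind) or AGATAA (a motif of zinc finger factors such as Gata2) on either strand.
Etv2: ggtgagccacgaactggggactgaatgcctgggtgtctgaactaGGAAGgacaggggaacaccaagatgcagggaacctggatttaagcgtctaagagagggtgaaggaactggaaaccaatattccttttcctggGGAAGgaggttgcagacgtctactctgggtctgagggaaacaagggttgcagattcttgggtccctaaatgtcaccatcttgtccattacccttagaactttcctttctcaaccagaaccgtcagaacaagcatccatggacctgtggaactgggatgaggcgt
Kdr: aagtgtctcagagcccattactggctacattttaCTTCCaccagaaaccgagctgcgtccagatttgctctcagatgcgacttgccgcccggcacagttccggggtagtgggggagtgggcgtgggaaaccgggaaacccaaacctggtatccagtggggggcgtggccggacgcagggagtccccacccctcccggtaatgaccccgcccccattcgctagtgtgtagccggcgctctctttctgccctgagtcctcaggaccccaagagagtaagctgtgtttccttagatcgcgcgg
Flt1: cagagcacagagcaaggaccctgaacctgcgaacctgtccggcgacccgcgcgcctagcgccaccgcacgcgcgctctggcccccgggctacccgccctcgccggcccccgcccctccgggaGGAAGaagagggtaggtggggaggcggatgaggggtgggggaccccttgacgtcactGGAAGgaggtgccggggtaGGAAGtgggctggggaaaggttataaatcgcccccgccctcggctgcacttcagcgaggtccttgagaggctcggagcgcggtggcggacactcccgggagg
Tek: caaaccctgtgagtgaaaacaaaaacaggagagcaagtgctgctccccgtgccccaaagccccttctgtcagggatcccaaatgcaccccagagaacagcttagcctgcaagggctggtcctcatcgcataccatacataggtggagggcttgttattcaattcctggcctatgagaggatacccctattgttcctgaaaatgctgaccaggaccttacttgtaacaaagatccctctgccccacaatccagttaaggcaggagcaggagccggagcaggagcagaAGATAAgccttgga

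The Flt1 window held 3 matches to the ETS letters, the Etv2 window 2 and the Kdr window 1, while the Tek window held none and had 1 match to the second motif, called GATA letters here. ETS letters were found in 71.4% of the 32851 RefSeq promoter windows of this length and GATA letters in 11.2%. The E-box letters CANNTG, which basic helix-loop-helix proteins such as Tal1 bind, were found in 72.3% of windows, with 2 matches in the Tek window and 1 in the Kdr window. RefSeq windows matched 7 of the 10 genes, 9 windows in all because Tal1 and Runx1 have 2 each. Of these 9, ETS letters were in 6, GATA letters in 2 and E-box letters in 5. In the 9 windows, 1 pair of matches to different motifs overlapped, in the Tie1 window. A match is a description of letters, and binding was not measured.

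**Figure D1:**
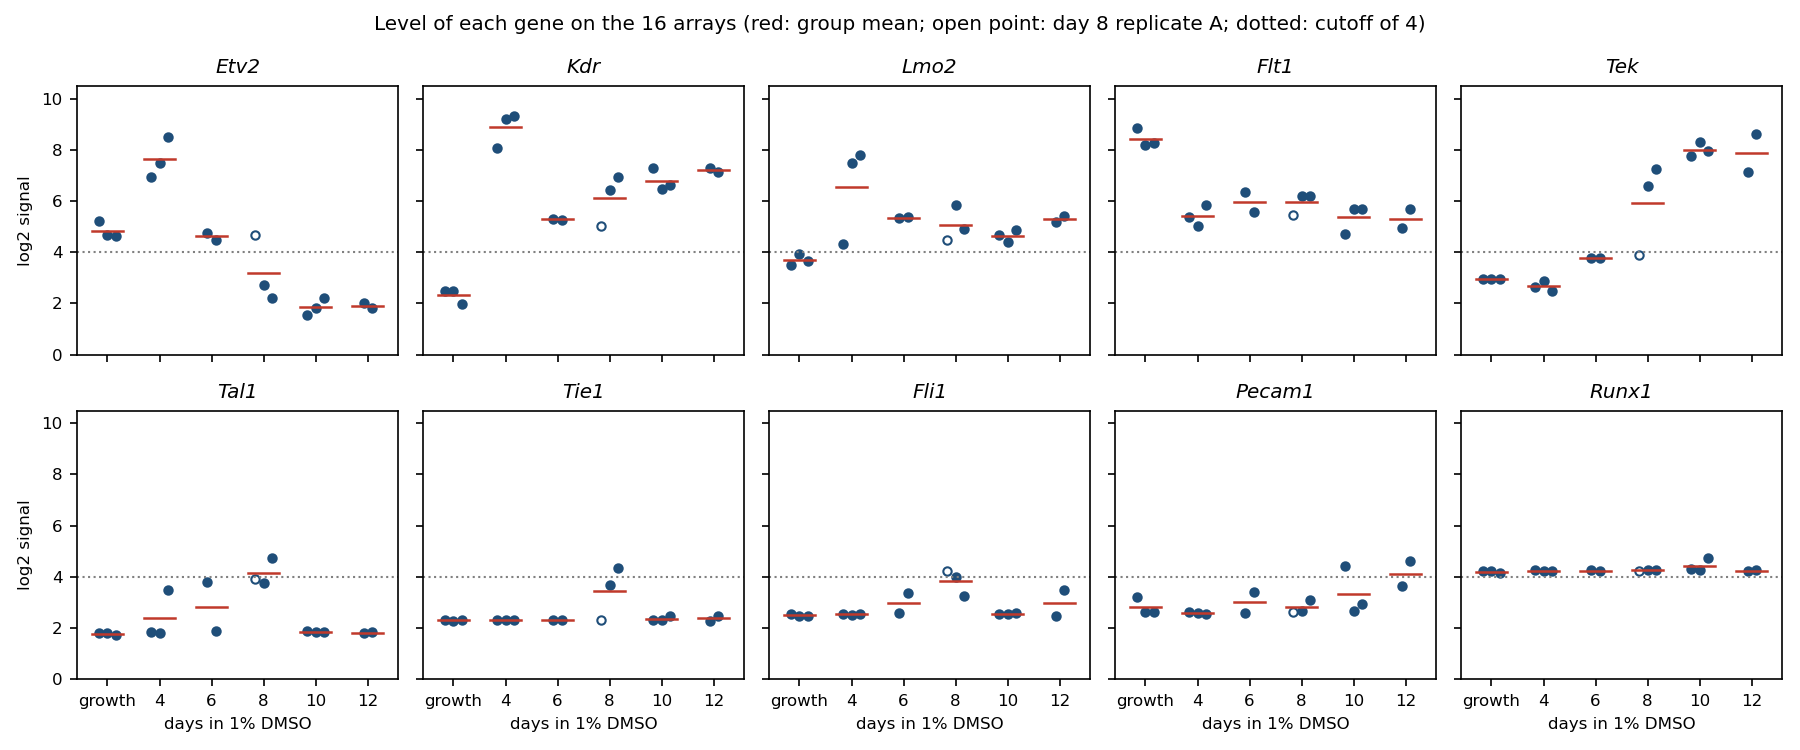
Log2 signal of the 10 genes (vertical axis) on each of the 16 arrays by group (horizontal axis, growth and days in 1% DMSO). Points are arrays, red lines group means, the open point day 8 replicate A, and the dotted line the limit of 4. Etv2 peaked on day 4, Kdr was highest on day 4 and stayed above 5 to day 12, Flt1 was highest in growth, and Tek passed 6 only on 2 day 8 arrays and on the day 10 and 12 arrays.

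Counted over the genes, 7 of the 10 passed the filter (above 4 on at least 2 arrays) and were tested with limma over all 10802 such genes. A difference was called at a Benjamini-Hochberg adjusted p under 0.05 and a size of at least 1 log2. Tal1, Tie1 and Fli1 were above 4 on 1 array each and were not tested. On day 4, 3 of the 7 tested genes were higher than in growth, beside 13.3% of all genes, and 1 was lower, beside 13.6%. On day 6, 1 was higher (all genes 14%) and 1 lower (12.9%). Both day 8 and day 10 had 2 higher and 2 lower, beside 16% higher and 15% lower of all genes on day 8, and 18.5% and 19.5% on day 10. The day 8 counts were again 2 higher and 2 lower without replicate A. On day 12, 3 were higher (22.5%) and 2 lower (19.3%). Over the whole series the moderated F test called 5 of the 7, namely Etv2, Lmo2, Kdr, Flt1 and Tek, beside 60.9% of all genes. Genes pass the filter through the groups in which they are high, so these counts describe the 7 genes and support nothing further. The same holds for the counts of the gene lists given below. The 5 comparisons with growth share the growth arrays.

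Etv2, which starts the blood and endothelial programme, was present in growth, rose on day 4 and fell below the limit of signal by day 10. The growth arrays measured 5.21, 4.68 and 4.63 log2, the day 4 arrays 6.95, 7.49 and 8.49, and the day 6 arrays 4.76 and 4.49. Day 8 replicates A, B and C measured 4.68, 2.70 and 2.22. The day 10 arrays lay at 1.55, 1.80 and 2.22 and the day 12 arrays at 2.00 and 1.81. Every day 4 array was above every other array, growth and day 6 overlapped, and all arrays of days 10 and 12 were under the limit of 4. Day 4 exceeded growth by 2.81 log2 (SE 0.51, 6.99-fold, limma adjusted p = 0.000513), and the day 6 difference from growth had a 95% interval from -1.45 to 1.02.

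The loss of Etv2 came in steps. From day 4 to day 6 Etv2 fell by 3.02 log2 (8.11-fold, limma adjusted p = 0.00454), a call that was lost without day 6 replicate C (adjusted p = 0.066). On day 10 it was at least 1.79-fold lower than growth (fitted difference -2.98, limma adjusted p = 0.000198) and on day 12 likewise at least 1.79-fold lower (-2.93, adjusted p = 0.000559). A fold against a group with every array under 4 is given as the brighter mean over 4. When values under 4 were set to 4, the day 8, 10 and 12 differences shrank to -0.61, -0.84 and -0.84, and their calls were lost, with limma adjusted p-values of 0.121, 0.0345 and 0.0538. The day 8 call (-1.64, limma adjusted p = 0.0154) was also lost without growth replicate A, day 8 replicate B or day 8 replicate C. Without day 8 replicate A, which measured near day 6, the day 8 difference was -2.38.

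Lmo2, the bridging protein of the Tal1 complex, was under the limit in growth and reached its highest levels on 2 of the 3 day 4 arrays. Growth measured 3.52, 3.92 and 3.65 log2, day 4 measured 4.31, 7.49 and 7.80, and day 6 measured 5.32 and 5.37. Day 8 replicates A, B and C lay at 4.49, 5.83 and 4.90, day 10 at 4.67, 4.39 and 4.85, and day 12 at 5.19 and 5.43. All 13 DMSO arrays were above 4 and above all growth arrays, and day 4 replicate A was the lowest of the 13. Lmo2 rose on day 4 by at least 5.79-fold (2.84 log2, SE 0.66, limma adjusted p = 0.00292). Without day 4 replicate A the difference was 3.95 log2 (at least 12.5-fold), and without day 4 replicate C it was 2.20 log2 (at least 3.73-fold). Replicate A was also the lowest of the 3 for Etv2, for Kdr and for the mean of the mesoderm markers, at 11.0 against 12.2 and 12.3, and the part of this in the Lmo2 value was not tested. Later days were not called: differences from growth of 0.94 to 1.65 log2 had limma adjusted p-values from 0.0733 to 0.235.

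Kdr, the main signalling receptor for VEGF, showed the largest single difference from growth among the 7 tested genes. Growth arrays measured 2.48, 2.47 and 1.99 log2, day 4 arrays 8.09, 9.22 and 9.33, and day 6 arrays 5.31 and 5.28. Day 8 replicates A, B and C were at 5.01, 6.44 and 6.92, day 10 arrays at 7.27, 6.47 and 6.64, and day 12 arrays at 7.29 and 7.15. Every DMSO array exceeded every growth array, and every day 4 array exceeded every later one. Kdr rose at least 29.4-fold by day 4 (6.56 log2, SE 0.43, limma adjusted p = 5.02e-08) and was called higher at all 5 days, at least 2.45-fold on day 6, 4.36-fold on day 8, 6.95-fold on day 10 and 9.34-fold on day 12. The day 8 difference was 3.81 log2, and 4.37 log2 without day 8 replicate A.

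Between the days in DMSO, Kdr dropped and partly came back. From day 4 to day 6 it fell 12-fold (-3.58 log2, SE 0.48, limma adjusted p = 0.000336). From day 6 to day 12, a comparison chosen after these values were seen, it rose 3.81-fold (1.93 log2, SE 0.52, limma adjusted p = 0.0112), and this call was lost without day 6 replicate B, day 6 replicate C or day 12 replicate A. Day 12 remained under day 4 by 3.15-fold (-1.66 log2, limma adjusted p = 0.0104), a call lost without day 12 replicate C (adjusted p = 0.0626). In the order of group means Kdr ran day 4, day 12, day 10, day 8, day 6 and growth. Neighbours from day 12 down to day 6 overlapped in their arrays, and day 4 and growth overlapped with none.

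Flt1, a VEGF receptor that also acts as a decoy, went the other way from Kdr. Its growth arrays measured 8.85, 8.19 and 8.28 log2. Day 4 measured 5.39, 5.01 and 5.84, day 6 measured 6.36 and 5.58, and day 8 replicates A, B and C measured 5.47, 6.22 and 6.19. Day 10 measured 4.71, 5.71 and 5.69, and day 12 measured 4.93 and 5.70. All growth arrays were above all DMSO arrays, and the 5 DMSO groups overlapped with one another. Flt1 fell 8.14-fold by day 4 (-3.03 log2, SE 0.35, limma adjusted p = 1.07e-05), 5.53-fold by day 6, 5.57-fold by day 8, 8.38-fold by day 10 and 8.72-fold by day 12. The day 8 difference was -2.48 log2, and -2.24 without day 8 replicate A. No step between neighbouring DMSO days was called for Flt1, with differences from -0.59 to 0.56 log2.

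The 4 probe sets of Flt1 gave the same direction. The other 3 averaged 6.93, 6.65 and 6.84 in growth and were called lower at each of the 5 days in the same model. The probe set second in level fell 3.66-fold by day 4, 2.33-fold by day 6 and 6.59-fold by day 10. The 2 lowest were at or under 4 on most DMSO arrays.

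**Figure D2:**
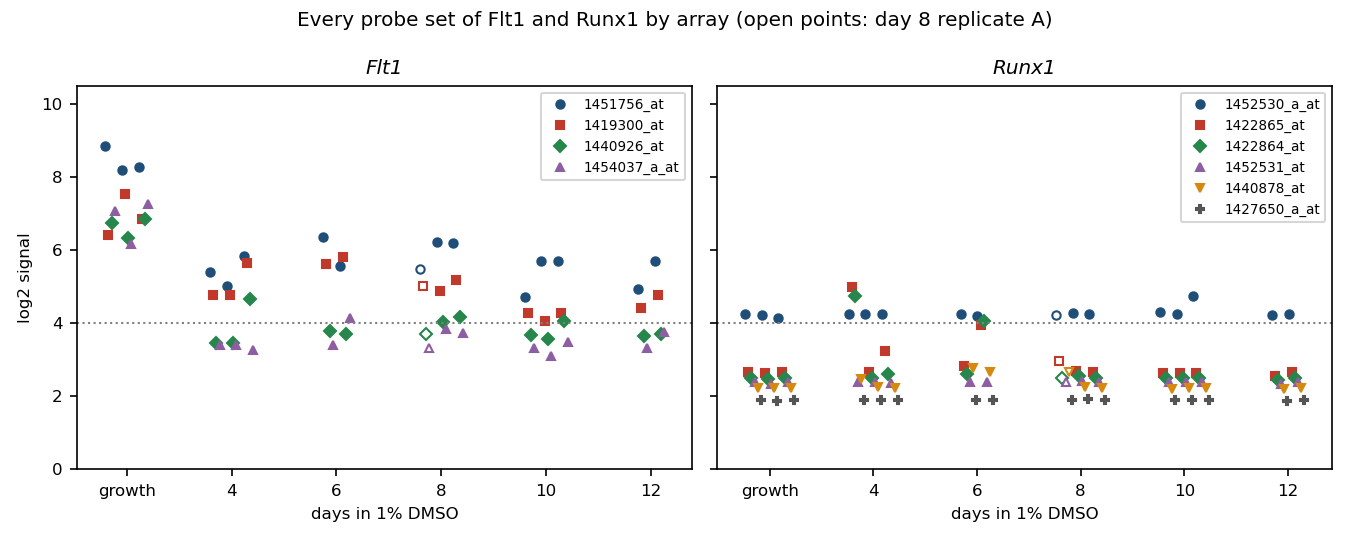
Log2 signal (vertical axis) of all 4 probe sets of Flt1 and all 6 of Runx1 on each array by group (horizontal axis), with open points for day 8 replicate A and a dotted line at the limit of 4. All 4 Flt1 probe sets were highest in growth, while the Runx1 probe set with the highest mean was flat and a pair of dimmer ones stood out on single arrays of days 4 and 6.

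Tek, the receptor for angiopoietins, came on late. Growth arrays measured 2.96, 2.96 and 2.97 log2, day 4 arrays 2.64, 2.86 and 2.50, and both day 6 arrays 3.79. Day 8 replicates B and C measured 6.59 and 7.26 while replicate A measured 3.90. Day 10 arrays reached 7.75, 8.32 and 7.94, and day 12 arrays 7.16 and 8.62. All growth, day 4 and day 6 arrays and day 8 replicate A were under the limit, and all other arrays were above 6.

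Against growth Tek rose at least 3.78-fold by day 8 (2.95 log2, SE 0.62, limma adjusted p = 0.00132), 16-fold by day 10 (5.04 log2, adjusted p = 1.16e-05) and 14.8-fold by day 12 (4.92 log2, adjusted p = 3.83e-05). Without day 12 replicate C the day 12 difference was 4.19 log2 and without replicate A it was 5.65. The day 8 difference was 3.96 log2 (at least 7.6-fold) without day 8 replicate A and 2.28 (at least 2.37-fold) without day 8 replicate C. The step from day 8 to day 10 (2.09 log2, limma adjusted p = 0.0372) was lost without day 8 replicate A (1.08 log2, adjusted p = 0.0694). It was also lost without either day 6 array or any of the 3 day 10 arrays.

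**Figure D3:**
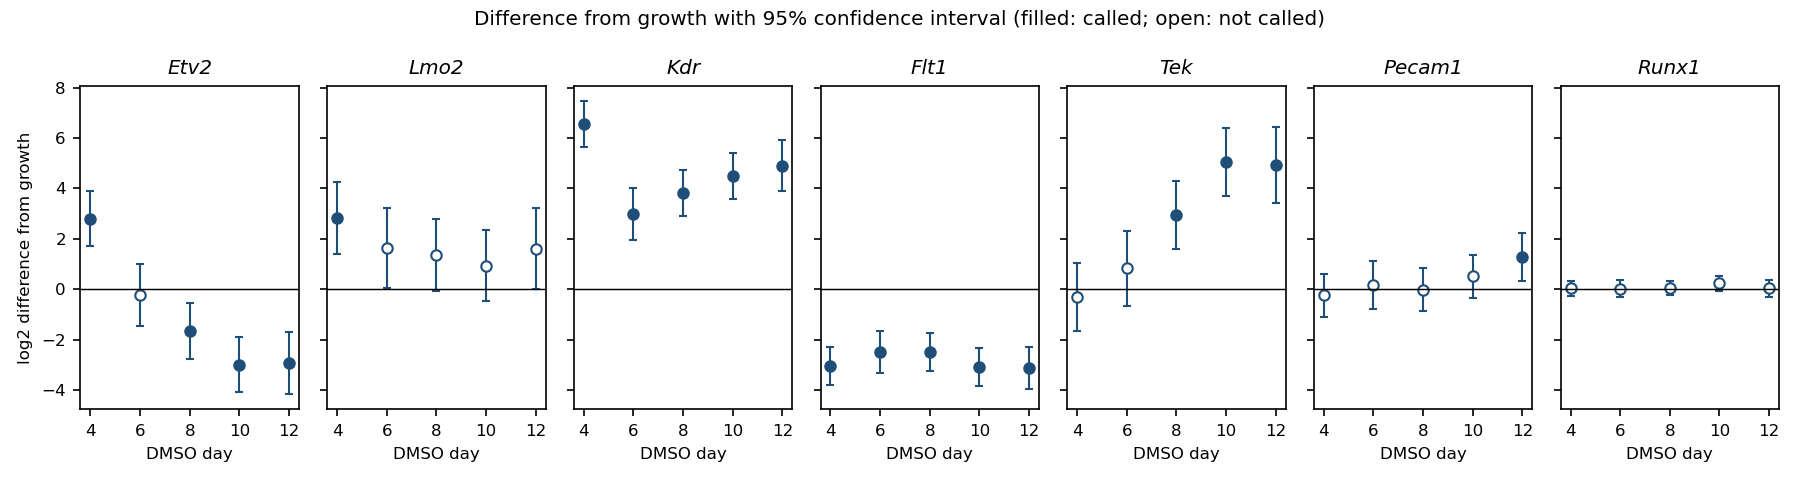
Difference in log2 signal from growth (vertical axis) for the 7 tested genes at each DMSO day (horizontal axis). Bars are 95% confidence intervals from limma and filled points are called differences. Etv2 moved from 2.81 on day 4 to -2.93 on day 12, Kdr stayed above 0 and Flt1 below 0 at all 5 days, and Tek rose from day 8.

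Tie1, the co-receptor of Tek, was measured above the limit on a single array. It lay between 2.28 and 2.48 on 14 arrays, at 3.67 in day 8 replicate B and at 4.34 in day 8 replicate C, while day 8 replicate A was at 2.32. Tal1, a basic helix-loop-helix factor needed for blood formation, was likewise highest on day 8, at 3.90, 3.76 and 4.74 in replicates A, B and C. It measured 3.50 in day 4 replicate C, 3.79 in day 6 replicate B and at most 1.90 on the other 11 arrays. Fli1, an ETS factor of blood and endothelium, measured 4.22, 3.99 and 3.23 in day 8 replicates A, B and C, 3.35 in day 6 replicate C, 3.49 in day 12 replicate C and at most 2.58 elsewhere.

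All 3 of these genes had their highest group mean on day 8. With no filter on dim genes, limma called all 3 higher on day 8 than in growth, by 2.37 log2 for Tal1 (adjusted p = 0.00393), 1.15 for Tie1 (adjusted p = 0.033) and 1.32 for Fli1 (adjusted p = 0.00424). From day 8 to day 10 Tal1 fell by 2.28 (adjusted p = 0.0223) and Fli1 fell by 1.27 (adjusted p = 0.0237), while the Tie1 difference was -1.09 (adjusted p = 0.103). Without day 8 replicate A the 3 genes were still called on day 8 against growth, by 2.48 log2 for Tal1, 1.71 for Tie1 and 1.12 for Fli1. From day 8 to day 10 Tie1 was then called (-1.65, limma adjusted p = 0.000223), and Tal1 (adjusted p = 0.0528) and Fli1 (adjusted p = 0.0893) were not. Most of these values were under the limit of 4, where differences have little meaning as amounts. The other probe set of Fli1 measured at most 3.03 log2 on any array. It moved in the same directions, but neither change was called. Its differences were 0.33 on day 8 against growth (limma adjusted p = 0.124) and -0.32 from day 8 to day 10 (adjusted p = 0.236). The Fli1 calls thus rest on a single probe set.

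Pecam1, an adhesion molecule of endothelial junctions, was under the limit on 14 of 16 arrays. It lay between 2.53 and 3.40 on 13 arrays and measured 4.42 in day 10 replicate A, 3.62 in day 12 replicate A and 4.61 in day 12 replicate C. Both day 12 arrays were above all growth arrays, and Pecam1 was called higher on day 12 (1.30 log2, limma adjusted p = 0.0216), which is at least 1.08-fold. The call was lost without growth replicate B or C and with values under 4 set to 4, and the F test did not call the gene (adjusted p = 0.0644). Pecam1 passed the filter only through day 10 replicate A and day 12 replicate C, and was not tested when either was left out. With no filter on dim genes its day 12 call was lost too. The call is thus tied to the filter.

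Runx1, needed for blood stem cells to emerge from endothelium, showed no called difference in any comparison. Its highest probe set stayed between 4.13 and 4.74 on all 16 arrays. These values lie near the limit of 4, so a steady level and a lack of signal cannot be told apart. The differences from growth ran from 0.03 to 0.23 log2, and their 95% intervals lay between -0.30 and 0.53. A pair of its 5 other probe sets stood out on day 4 replicate A, at 4.99 and 4.74, and on day 6 replicate C, at 3.95 and 4.06, where they otherwise stayed at or under 3.23. Neither was called in any group.

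Steps between neighbouring days compare DMSO groups with one another, while their spread was still estimated over all 16 arrays. From day 4 to day 6, limma called 0 of the 7 genes higher (all genes 3.52%) and 2 lower, Etv2 and Kdr (2.61%), the same number as had an unadjusted p under 0.05. From day 6 to day 8 limma called 0 higher (0%) and 0 lower (0.0185%), with 2 genes at an unadjusted p under 0.05. Without day 8 replicate A, 3 were called in this step: Tek rose by 3.13 log2 (limma adjusted p = 0.000194), Kdr rose by 1.39 (adjusted p = 0.0391) and Etv2 fell by 2.16 (adjusted p = 0.00497), beside 3.72% higher and 1.94% lower of all genes. Day 8 to day 10 had 1 called higher by limma, Tek (4.62%), which was not called in a fit of only the day 8 and day 10 arrays, and 0 lower (3.19%), with 2 genes at an unadjusted p under 0.05. Limma called 0 higher (2.88%) and 0 lower (0.185%) from day 10 to day 12, with 0 genes at an unadjusted p under 0.05.

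Across the longer spans, Tek and Pecam1 were higher on day 12 than on day 4 (2 of 7, all genes 19%) and Etv2 and Kdr were lower (2 of 7, 13.2%). With values under 4 set to 4 the Pecam1 difference was 0.30 log2 and its call was lost (limma adjusted p = 0.159). Pecam1 was tested here only because it passed the filter on day 10 replicate A and day 12 replicate C. From day 6 to day 12, the comparison added later, Kdr and Tek were higher (2 of 7, 13.7%) and Etv2 was lower (1 of 7, 9.33%). The Etv2 call was lost with values under 4 set to 4 (-0.62 log2, limma adjusted p = 0.231).

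Ligands and other receptors of the VEGF and angiopoietin pathways were read from a list of 16 genes. The list also held Angptl4, the apelin genes Apln and Aplnr, and the Notch genes Dll4 and Notch1. Aplnr (days 4, 6 and 8) and Notch1 (days 4 and 12) add to the genes counted as higher below. Of the 16 genes, 13 were tested. On days 4, 6, 8, 10 and 12, 6, 5, 6, 7 and 8 of them were higher than in growth, beside 13.3, 14, 16, 18.5 and 22.5% of all genes, and 1 was lower at each day, beside 13.6, 12.9, 15, 19.5 and 19.3%. The list's median difference ran from 0.36 to 1.34 log2, beside medians of all genes between -0.02 and 0.01. Nrp1 and Nrp2, co-receptors for VEGF and semaphorins, were under the limit in growth. Nrp1 averaged 9.52 ± 0.35 log2 (SD, n = 3) on day 4 and 11.82 ± 0.51 (SD, n = 2) on day 12, at least 45.9-fold and 225-fold above growth. Nrp2 was at least 29.4-fold higher on day 4 and 5.76-fold on day 12.

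Aplnr, the apelin receptor of early mesoderm, reached 11.48 ± 1.59 (SD, n = 3) on day 4, at least 179-fold above growth (335-fold without day 4 replicate A, 119-fold without day 4 replicate B), and was back under the limit on days 10 and 12. Among the ligands, Vegfc was called higher at all 5 days, at least 4.86-fold on day 4 and 10.6-fold on day 12. Its day 12 difference of 3.82 log2 became 2.92 without day 8 replicate A or day 10 replicate A, where another probe set of the gene had the highest mean. Vegfa was called from day 6 and was 10.2-fold higher on day 12. Angpt1, the activating ligand of Tek, was under 4 up to day 8 and at least 2.77-fold higher on day 10 (limma adjusted p = 8.31e-06). Angpt1 and Tek were thus both called higher on days 10 and 12. Angpt2, the other angiopoietin of the list, was called on these days too, at least 2.47-fold on day 10 and 2-fold on day 12. It was also called on day 8 (1.08 log2, limma adjusted p = 0.0337), where its arrays overlapped with growth. The single gene that fell was Flt4, the VEGF-C receptor, from 6.89 in growth to 5.69 on day 4 and 4.76 on day 10.

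Partners of the transcription factors were read from a list of 24 genes, of which 14 were tested. On days 4, 6, 8, 10 and 12, 8, 7, 8, 7 and 8 of the 14 were higher than in growth, beside the 13.3 to 22.5% of all genes given for the VEGF list. In the fit of all arrays limma called 0 lower at every day, beside 12.9 to 19.5% of all genes. From 9 to 11 genes had an unadjusted p under 0.05. The median difference of the 14 ran from 1.02 to 1.48 log2, beside -0.02 to 0.01 for all genes. Without day 8 replicate A, 6 were called higher on day 8, and Mecom was called lower on day 4 (-1.06 log2, limma adjusted p = 0.0136) and higher on day 6 (1.49 log2, adjusted p = 0.0043). The ETS factors Elf1, Ets2 and Ets1 were called at all 5 days: Elf1 at least 11.1-fold on day 4 against the limit of 4, which 1 of 3 growth arrays passed, Ets2 7.15-fold on day 4, and Ets1 from 4.31-fold on day 4 to 20.2-fold on day 12. The day 6 call of Ets1 was lost without day 6 replicate B (adjusted p = 0.0594). Gata3 rose 5.97-fold by day 4. Mecom was called from day 8, at 8.47-fold on day 8, 14.8-fold without day 8 replicate A and 5.47-fold without day 8 replicate C, with 1 of 3 growth arrays above 4. Nr2f2, a factor of veins and atria, was at least 31.9-fold higher on day 12. Erg, Gata1, Lyl1, Hhex, Sox7, Sox17, Sox18, Gfi1, Gfi1b and Foxc2 did not pass the filter.

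Surface and junction genes of endothelium numbered 19, and 8 passed the filter. Of the 8, Cdh5, Esam, Icam2 and Mmrn2 were under 4 on all growth, day 4 and day 6 arrays. They passed the filter through later groups, so the rise in the counts and median below is partly set by the filter. In the fit of all arrays limma called 0 of the 8 on day 4 (2 at an unadjusted p under 0.05), beside 13.3% higher and 13.6% lower of all genes. On days 6, 8, 10 and 12 it called 1, 2, 5 and 6 higher, beside 14, 16, 18.5 and 22.5% of all genes. On the same days it called 0 lower, beside 12.9, 15, 19.5 and 19.3%. The median difference of the 8 went from -0.03 log2 on day 4 to 1.72 on day 12, beside 0.00 for all genes on both days. On day 8, 5 were called without replicate A. On day 12 Icam2 was at least 2.7-fold higher, Mmrn2 at least 3.62-fold, Ramp2 4.21-fold and Ecscr 3.75-fold. The day 12 call of Ramp2 was lost without day 12 replicate A (adjusted p = 0.0583), its day 10 call without any 1 growth or day 10 array, and the day 6 call of Ecscr without growth replicate A, growth replicate B or day 6 replicate B. Esam was called on days 8, 10 and 12 at group means of 3.52, 3.77 and 3.74, under the limit of 4. Its day 8 call (1.09 log2) was lost without growth replicate A or C or day 8 replicate B or C.

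Among the genes of this list that did not pass the filter, Cldn5, Vwf and Cd34 stayed under the limit on all 16 arrays, with group means of at most 1.94 for Cldn5, 2.60 for Vwf and 2.39 for Cd34. Cdh5, the cadherin of endothelial junctions, passed 4 in day 8 replicate C (4.03), day 10 replicate A (4.88) and day 12 replicate A (4.18), and was called higher on day 12 (1.53 log2, limma adjusted p = 0.0255) at a group mean of 3.99. Day 10 replicate A was also where Pecam1 (4.42) and Emcn (4.42) were above the limit, and the other 2 day 10 arrays were under 3 for Cdh5, Emcn and Pecam1. Egfl7 was high everywhere, with 8.67 in growth and 7.81 to 8.15 in the DMSO groups. On the arrays of days 10 and 12, where Tek was at 7.16 to 8.62, the mean of the cardiac markers was 11.4 to 12.6, and its part in the Tek value was not tested.

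**Figure D4:**
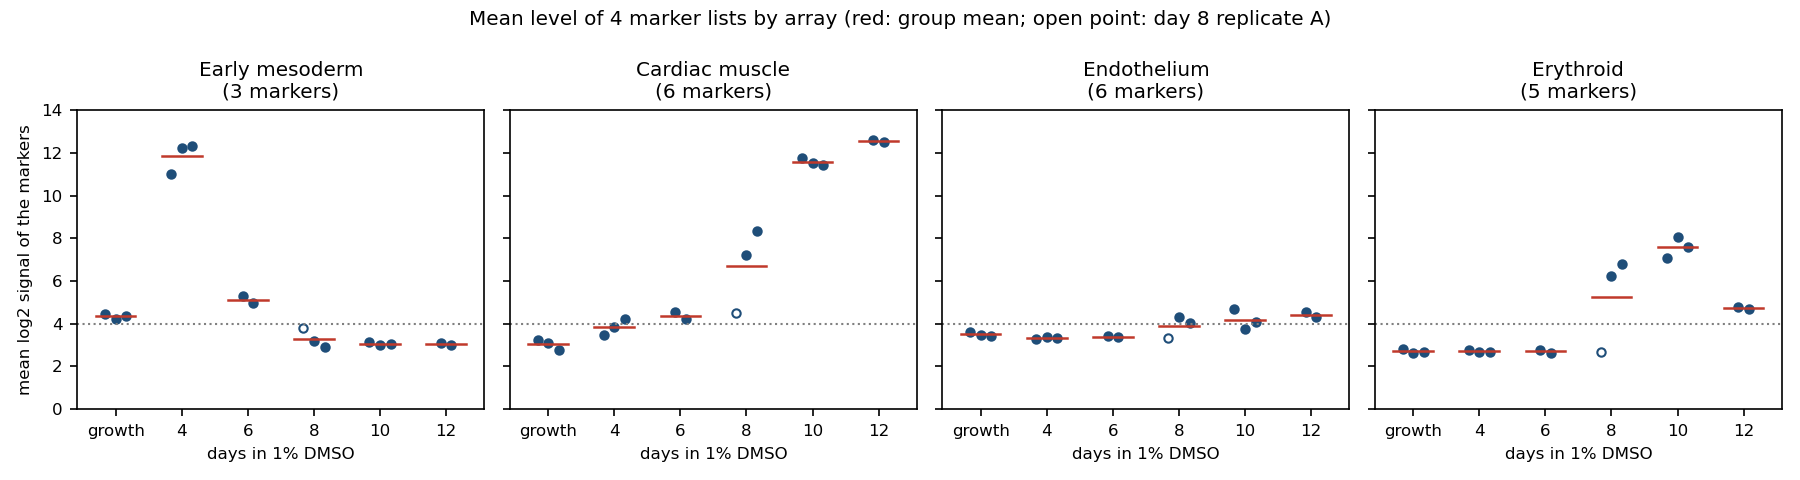
Mean log2 signal of 4 marker lists (vertical axis) on each array by group (horizontal axis), with red group means and an open point for day 8 replicate A. Early mesoderm markers were at 11.0 to 12.3 on day 4, cardiac markers at 12.5 to 12.6 on day 12, endothelial markers between 3.29 and 4.70 throughout, and erythroid markers highest on day 10 at 7.07 to 8.05. The endothelial mean is raised by Egfl7, at group means of 7.81 to 8.67. Within it Icam2 went from 2.82 in growth to 5.43 on day 12, and Cldn5 averaged at most 1.94.

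Blood genes numbered 18, of which 9 were tested. On days 4, 6, 8, 10 and 12, 1, 1, 4, 6 and 3 of the 9 were higher than in growth, beside 13.3, 14, 16, 18.5 and 22.5% of all genes, and 1 was lower at each day, beside 12.9 to 19.5%. The counts of 1 lie near those shares. Kit, a receptor of blood and germ cell progenitors, rose 56.5-fold by day 4 (4.00 to 9.82 log2, with 1 of 3 growth arrays above 4) and was 9.42-fold higher on day 12. Myb, a factor of definitive blood progenitors, was the gene that fell, from 6.45 in growth to 4.06 on day 4. The median difference of the 9 was 0.04 log2 on day 4, 3.03 on day 10 and 0.91 on day 12, beside -0.02 to 0.00 for all genes. Without day 8 replicate A the day 8 count was 5 higher and 1 lower.

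Embryonic globins came up after the day 4 peak of Etv2. Hbb-bh1 measured 11.96 and 12.63 log2 in day 8 replicates B and C, 2.95 in replicate A, 12.62 to 13.23 on day 10, and 8.21 and 7.01 on day 12. On day 10 it was at least 464-fold and Hba-x at least 216-fold above growth (limma adjusted p = 0.000268 and 0.000168). Hbb-y, another embryonic globin, was at least 12.5-fold (20.6-fold without day 10 replicate A) and Alas2, the erythroid haem enzyme, at least 2.12-fold higher on day 10. The day 8 call of Hbb-bh1 was lost without day 8 replicate B or C, and the day 12 call of Hba-x without any 1 growth or day 12 array. Probe sets of globins can bind each other's transcripts. Pf4, a platelet gene, was at least 1.09-fold higher on day 12. It passed the filter only through the 2 day 12 arrays, at 4.01 and 4.24, and was not tested when either was left out. Its call is thus tied to the filter.

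Some erythroid and blood genes were low on the same arrays, while others were not. Gata2, of the partner list, averaged 5.47 on day 8 and 4.96 on day 10. The erythroid genes Slc4a1 and Epor averaged 5.01 and 4.87 on day 10. Gata1 stayed under the limit on all 16 arrays, Klf1 passed it in day 8 replicate C alone (4.16), and Ptprc, Spi1, Ikzf1, Itga2b and Hba-a1, the adult alpha globin, were under it throughout. In day 8 replicate A, where Tal1 was at 3.90, Hbb-bh1 and Hba-x were not above 2.95.

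**Figure D5:**
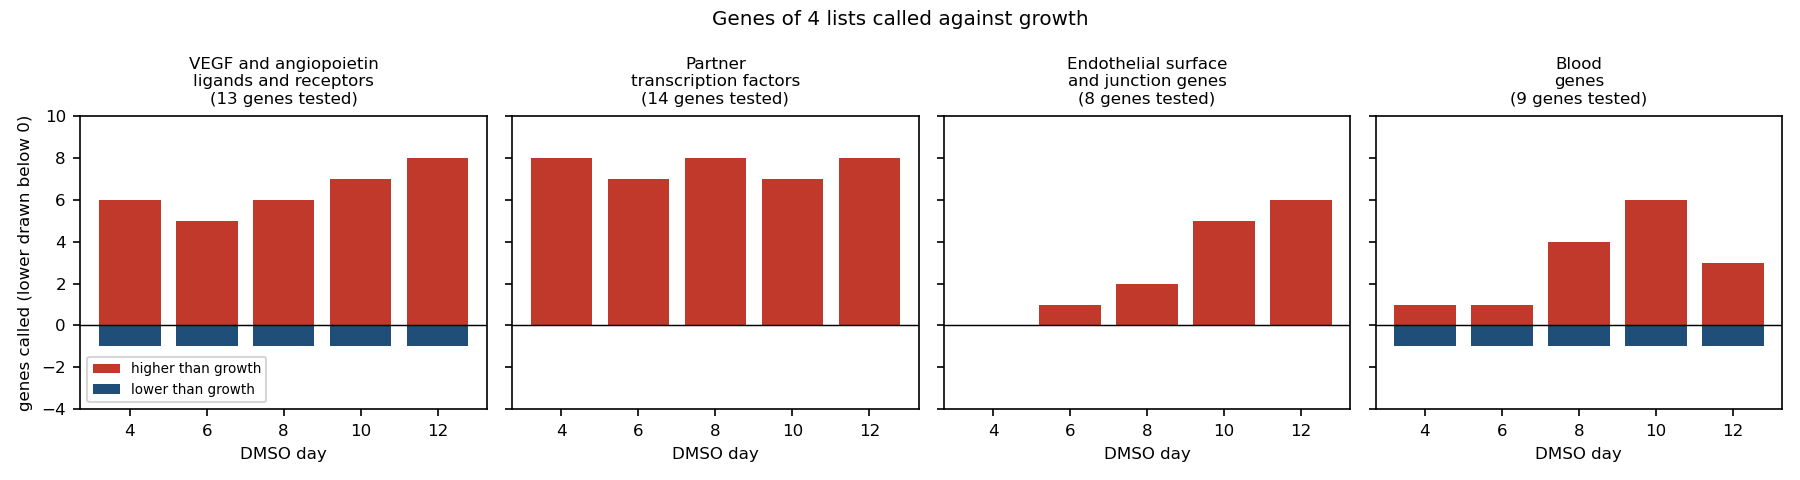
Number of tested genes of 4 lists called against growth (vertical axis, genes called lower drawn below 0) at each DMSO day (horizontal axis). The endothelial list went from 0 on day 4 to 6 on day 12, the blood list peaked at 6 higher on day 10, and the transcription factor list stayed at 7 to 8 higher. Genes pass the filter through groups in which they are high, so the counts describe the tested genes alone.

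The genes whose patterns lay closest to each tested gene were found by the root mean square difference over the 16 arrays, after values under 4 were set to 4 and each gene was centred. Closest to Etv2 were L1cam at 0.35 log2, Sema6a at 0.40 and Septin8 at 0.41, beside a spread of Etv2 itself of 1.37 (SD). Closest to Tek were Sphkap and Fry, both at 0.29, and Gata5, a cardiac and endocardial factor, at 0.34, beside an SD of 1.87. The nearest to Lmo2 were Dusp5 (0.45), Cbln1 (0.46) and Pcdh19 (0.47), and to Flt1 they were Clpb (0.43), Ccdc160 (0.44) and Bmerb1 (0.44).

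Kdr had the least close neighbours, Gas1 at 0.79, Inka1 at 0.81 and Gpc3 at 0.81, beside its SD of 1.65. Pecam1 and Runx1, with SDs of 0.17 and 0.13 on this scale, were closest to other nearly flat genes: N4bp2l2, Acer2 and Fbxl7 for Pecam1, and AI463170, Dlgap1 and Macroh2a3 for Runx1. None of the 10 genes was compared with another in this ranking, and arrays of a group share their condition.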

How the data were processed

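The deposited table holds 1 value per probe set and array on a log2 scale; the submitters' processing notes name GCRMA, a method that uses probe sequence to correct background, then quantile normalization and a summary per probe set, and give no version. The scale and base are not given in the sources used here: log2 was read from the range of 0.863 to 15.9. The authors' log2 values were used unchanged.

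Of the probe sets, 34945 named a single gene and 932 several; no probe set of the 10 genes named several. Probe sets above 4 on fewer than 2 arrays were left out, and the probe set with the highest mean stood for a gene. Differences come from limma 3.58.1 (R 4.3.3), whose lmFit and eBayes used the 16 arrays together and gave each group its own mean, with 10 residual degrees of freedom and 3.53 from the prior. Adjustment was by Benjamini-Hochberg over all 10802 genes of a contrast. The code was tested on simulated data.

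Named genes were the 10 genes, up to 4 called genes of each pathway list at each day by size of difference, and the 3 closest patterns; other genes were named as markers, as counts of 5 or fewer, or after their values were seen. The members and lists were chosen with earlier results of these data known. Alternatives covered the filter, normalization, low values, variance model, array weights, replicate letter, probe set choice, threshold and each array left out. The day 6 to day 12 contrast, the values without day 8 replicate A, folds with single arrays left out and the other probe sets of the 10 genes were added after the data were seen. The number of arrays limits precision.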

Additional observations from a re-analysis of the deposited data

Results flagged for a closer look

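Etv2 was the 1 gene of the 7 tested that was called in both directions against growth. Its difference was 2.81 log2 on day 4 and -1.64, -2.98 and -2.93 on days 8, 10 and 12, and the drop between days was itself called from day 4 to day 12 (-5.74, limma adjusted p = 3.88e-06). The growth arrays are shared by these comparisons. All arrays of days 10 and 12 were under the limit of 4. With values under 4 set to 4, the differences of days 8, 10 and 12 were -0.61, -0.84 and -0.84 log2 and their calls were lost. The calls in the lower direction thus rest on values under the limit.

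Signal above the limit of 4 was also seen in probe sets of Runx1 that did not stand for the gene. They measured 4.99 and 4.74 in day 4 replicate A, and 1 of them measured 4.06 in day 6 replicate C, while all growth arrays were at or under 2.66. The other arrays of the same groups were under 4, and nothing was tested on these single values.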

How the results depend on the processing

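Of 29 called differences of the tested genes, 19 kept their call and direction under every setting tried, up to 28 each, 10 lost the call under 1 or more, and 0 reversed. With no filter on dim genes, 7 genes were called on day 8 against growth in place of 4, since Tal1, Tie1 and Fli1 were then tested. The day 8 to day 10 step had 1 call, and 2 with no filter, 2 after quantile normalization again, 0 in a fit of only the groups compared and 0 at an adjusted p of 0.01. Its range was 0 to 2 with 1 array left out. With values under 4 set to 4, 3 genes were called on day 12 against growth in place of 5. The day 6 to day 8 step had 0 calls, 3 with array weights, and 0 to 3 with 1 array left out. The day 4 to day 12 comparison had 4 calls, 2 at an adjusted p of 0.01, and 2 to 5 with 1 array left out. The day 4 to day 6 step had 2 calls, and 1 to 3 with 1 array left out. A filter at log2 6 left 7 of 11 genes of the VEGF and angiopoietin list, 2 of 6 endothelial genes and 5 of 8 blood genes called at 1 or more days, with fewer genes tested. Where no cause is named, the cause was not tested.

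The replicate letters recur across groups, but the labels do not say what a letter marks. Deviations from group means correlated at -0.21 to 0.32 (median 0.06) between the 35 pairs of arrays with the same letter in different groups, against a median of -0.03 between the 71 pairs with different letters. Of the 16 arrays, 12 correlated best with their own letter. Deviations within a group cancel out, and those of days 6 and 12 (n = 2 each) are mirror images, so the arrays are not independent. The count thus cannot show whether a letter marks a shared effect. Not every same-letter pair was above 0.1, so the letters were not taken as pairs. With the letter as a replicate block, 4, 2, 4, 4 and 6 genes were called on days 4, 6, 8, 10 and 12 against growth, beside 4, 2, 4, 4 and 5 without it. Values near or under 4 carry little signal over background, which limits Tal1, Tie1, Fli1, Pecam1 and Runx1 most.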
